A study of Rattus norvegicus with 24 samples.

Results

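The 4 rat lung samples whose titles carry the number 3 (A3, B3, C3 and G3) were compared with the 8 samples numbered 5 and 6 (A5, B5, C5, G5, A6, B6, C6 and G6), out of 24 samples in the series. The choice rests on the titles, which join 1 of 4 letters to 1 of 6 numbers, and no measured value entered it. The series models lung cancer in Rattus norvegicus with smoky coal, and all 24 samples carry the same labels for tissue (lung) and protocol (smoky coal), the 8 comparison samples included. No strain, genotype, sex, age, dose, exposure time, tumour state or untreated control is labelled for any sample, and the labels do not say what a letter or a number stands for. A difference between numbers therefore cannot be told apart from one of treatment, time, animal or batch. Nothing says that samples of 1 number came from separate animals, so the p-values measure only the spread between these samples.

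Values are normalized read counts per gene from sequencing of mRNA, summing to between 61717516 and 66007148 per sample, and the number of reads behind them is unknown. The submitters' processing notes name the mouse genome build GRCm38 although the samples are rat, and how rat reads fared on mouse gene models was not tested. The tissue label held for the lung's defining genes. In the 12 samples compared, Sftpc (surfactant protein C of alveolar type 2 cells) lay at 731276 to 922496 in number 3 and 610363 to 813448 in numbers 5 and 6, Scgb1a1 (the club cell secretoglobin) at 393172 to 495837 and 433197 to 582250, Ager (alveolar type 1 cells) at 163534 to 175411 and 155039 to 185212, and Pecam1 (endothelium) at 24281 to 28062 and 25858 to 30590. Of the macrophage markers Mrc1 and Cd68 were abundant, while Marco was near 0 in every one of the 12 samples, at 0.998 to 3.92 and 0.959 to 9.72.

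The alveolus is lined by flat type 1 cells, which exchange gas, and by cuboidal type 2 cells, which make surfactant and store its lipid. Alveolar macrophages clear spent surfactant and inhaled particles, and depend on the nuclear receptor PPAR gamma for their lipid handling. Glucocorticoids, the steroid hormones of stress and fasting, act through a receptor that binds DNA near its target genes, Fkbp5, Tsc22d3 and Zbtb16 among the best known of them, and they also drive surfactant production in the lung. The endoplasmic reticulum, where secreted proteins fold, answers a load of unfolded protein by raising its chaperones through transcription factors that include Xbp1.

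Lungs numbered 3 differed from those numbered 5 and 6 in 2164 of 30627 genes tested (7.07%), 1184 of them higher (3.87% of the genes tested) and 980 lower (3.2%), at a limma adjusted p under 0.05 with the letter as a block. Most differences were small: 255 of the 2164 genes (0.833% of those tested) had an absolute log2 fold change of at least 1, of which 146 were higher and 109 lower. A log2 fold change is the number 3 value minus the mean of numbers 5 and 6 after taking log2(value + 1), a scale that makes the changes of genes with low values look smaller than they are. Taken apart, number 3 differed from number 5 in 1893 genes (6.18%) and from number 6 in 2590 (8.46%), while numbers 5 and 6 differed from each other in 54 (0.176%). The difference was unequal between letters in 2 genes (0.00653%). Each letter held 1 number 3 sample, so this test cannot tell a letter from a single sample. Its spread rests on number 5 against number 6 within letters, and the low count does not show that the letters were alike. All 4 number 3 samples lay above all 8 others in 982 genes (3.21% of those tested) and below all 8 in 735 (2.4%). The first principal component of the 12 samples held 23.6% of their variance and placed the 4 number 3 samples on one side, with G6 the nearest of the others. In these bulk samples fewer cells of a type and less RNA per cell cannot be told apart, here or in any result below.

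**Figure D1:**
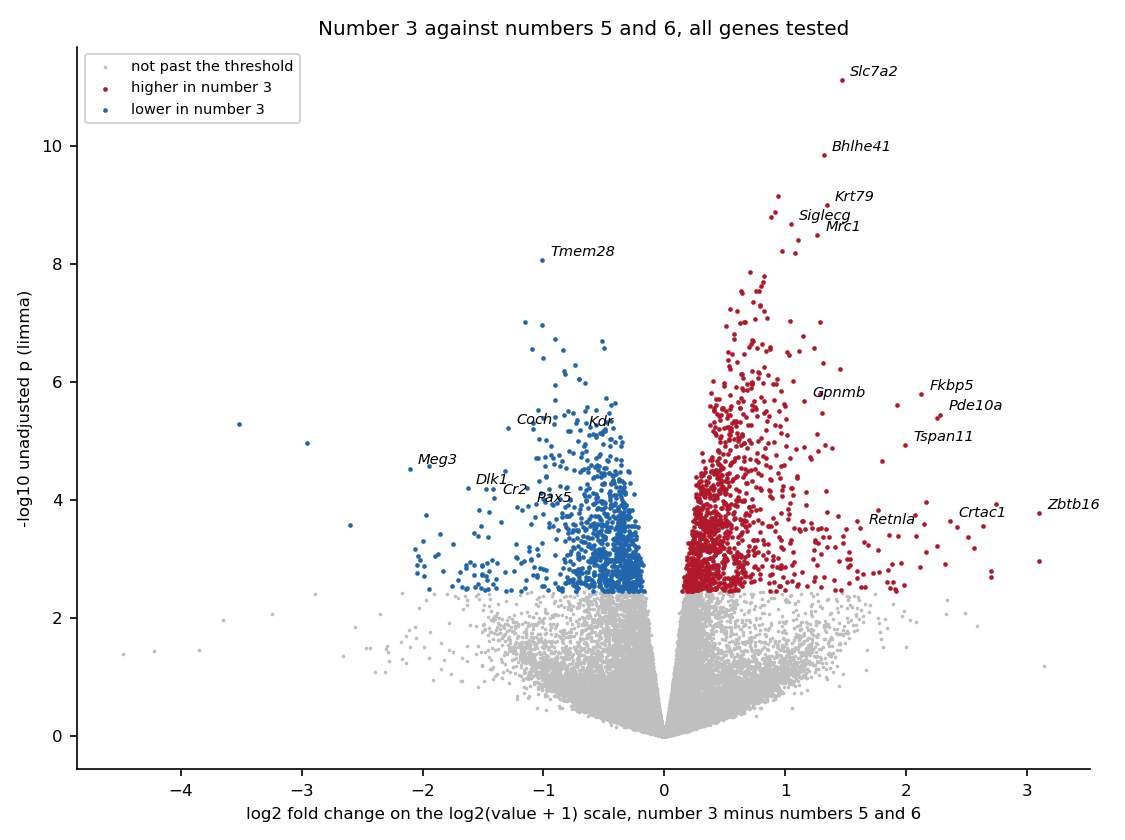
Each point is a gene; the x axis is the log2 fold change of number 3 against numbers 5 and 6 on the log2(value + 1) scale and the y axis is -log10 of the unadjusted limma p. Red points are the 1184 genes higher in number 3 at an adjusted p under 0.05, blue points the 980 lower, and grey points did not pass; Slc7a2 has the smallest p and Zbtb16 is among the genes with the largest positive fold change.

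The genes that rose most without any overlap between the 4 and the 8 samples were Crtac1, Pde10a, the immunoglobulin segments Ighv1-54 and Ighv1-58, Fkbp5, Tspan11, Tmem169, Tmem236, Scn10a, Pla2g4e, Retnla and Slc7a2. Crtac1, a secreted matrix protein, had 117, 107, 66.2 and 57.9 normalized counts in A3, B3, C3 and G3, the order used throughout, and 6.02 to 41.6 (median 16.3) in the 8 samples of numbers 5 and 6 (log2 fold change 2.36, SE 0.46, limma adjusted p = 0.00879). A3 and B3 were the highest and the lowest number 3 sample still exceeded all 8. Pde10a, which breaks down cyclic AMP and cyclic GMP, had 116, 292, 177 and 399.6 against 28.9 to 78.2 (median 43.1) (log2 fold change 2.28, SE 0.29, limma adjusted p = 0.000707). Tspan11, a tetraspanin of the cell surface, had 209, 272, 370.5 and 187 against 30.8 to 90.8 (median 64.9) (log2 fold change 1.99, SE 0.29, limma adjusted p = 0.00138). In both genes all 4 number 3 samples lay above the others, G3 highest in Pde10a and C3 in Tspan11.

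Tmem236, a membrane protein, was even among the number 3 samples, at 98.2, 89.4, 99.6 and 69.9, against 14.3 to 33.8 (median 23.7) (log2 fold change 1.92, SE 0.24, limma adjusted p = 0.000612). Scn10a, a voltage-gated sodium channel of sensory neurons, had 55.1, 133, 66.2 and 90.9 against 13.5 to 38.4 (median 23.1) (log2 fold change 1.80, SE 0.28, limma adjusted p = 0.00206). Pla2g4e, a cytosolic phospholipase A2, had 46.1, 94.3, 92.5 and 55.9 against 11.6 to 37.7 (median 20.6) (log2 fold change 1.65, SE 0.36, limma adjusted p = 0.0144). All 3 genes were low, with medians in numbers 5 and 6 between 20.6 and 23.7 normalized counts, and the 2 groups did not overlap. Tmem169 rose by 1.93 (SE 0.41, limma adjusted p = 0.0125), but C3 at 200.05 stood far above the other number 3 samples. The segments Ighv1-54 and Ighv1-58 encode parts of antibody heavy chains and had 60.1 to 219.8 and 64.8 to 201 in number 3 against 9.92 to 42.5 and 12.4 to 50.1. Their values are uncertain, since such segments come in many near-identical copies that share reads. Crtac1 missed the threshold without A3 or B3 (adjusted p up to 0.0572), Pla2g4e without B3 or C3 (up to 0.102) and Tmem169 without A3 or C3 (up to 0.0901).

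The genes that fell most without overlap were Meg3, Caln1, Dmrt2, Dlk1, Minar1, Rn7sk, Nkx2-9, Srpk3, Cr2, Bcl11a, Coch and Zscan18. Meg3 and Dlk1 lie in the same imprinted domain, expressed from the maternal and the paternal chromosome respectively. Meg3, a long noncoding RNA, had 121, 130.4, 92.7 and 64.9 in number 3 against 189 to 867 (median 399) (log2 fold change -2.11, SE 0.33, limma adjusted p = 0.00253). Dlk1, a membrane protein related to the ligands of Notch, had 377, 314, 303 and 311 against 592 to 2128 (median 897) (log2 fold change -1.63, SE 0.28, limma adjusted p = 0.00401). The number 3 samples were close together in Dlk1, with A3 a little above the other three, while the 8 others ranged widely. Of the 10 imprinted genes tested, 3 fell (Meg3, Dlk1 and Peg3) and 1 rose (Grb10, log2 fold change 0.33), and the median of all 10 was -0.066, while Igf2, H19 and Cdkn1c had log2 fold changes of 0.19, -0.0067 and -0.19 and did not pass. With all 24 samples in the fit Dlk1 missed the threshold (adjusted p = 0.0799), and Peg3 missed it without A3, B3 or C3 (up to 0.136).

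Caln1, a neuronal calcium-binding protein, had 23.1, 28.4, 31.6 and 36 against 73.8 to 308 (median 103) (log2 fold change -1.95, SE 0.31, limma adjusted p = 0.00242). Coch, a secreted protein first known from the inner ear, had 27.1, 36.2, 37.7 and 22 against 61.6 to 92.4 (median 75.3) (log2 fold change -1.30, SE 0.18, limma adjusted p = 0.00094). Zscan18, a zinc finger protein, had 18.1, 19.6, 18.4 and 24 against 32 to 65.9 (median 51.2) (log2 fold change -1.22, SE 0.23, limma adjusted p = 0.00641). In each of the 3 genes the number 3 samples formed a narrow low group below every sample of numbers 5 and 6. Bcl11a, a transcription factor of B cells and plasmacytoid dendritic cells, had 81.2, 52.9, 77.5 and 67.9 against 100.4 to 275 (median 185) (log2 fold change -1.35, SE 0.27, limma adjusted p = 0.0091). Dmrt2, Minar1, Nkx2-9, Srpk3 and the 7SK small nuclear RNA gene Rn7sk fell by 1.47 to 1.85 on the log2 scale, with number 3 samples between 9.22 and 40.1 normalized counts. Bcl11a missed the threshold without B3 (adjusted p = 0.057), Dmrt2 and Nkx2-9 without A3 or C3 (up to 0.0714 and 0.057) and Minar1 without B3, C3 or A6 (up to 0.133). Rn7sk missed it with all 24 samples in the fit (adjusted p = 0.0941).

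**Figure D2:**
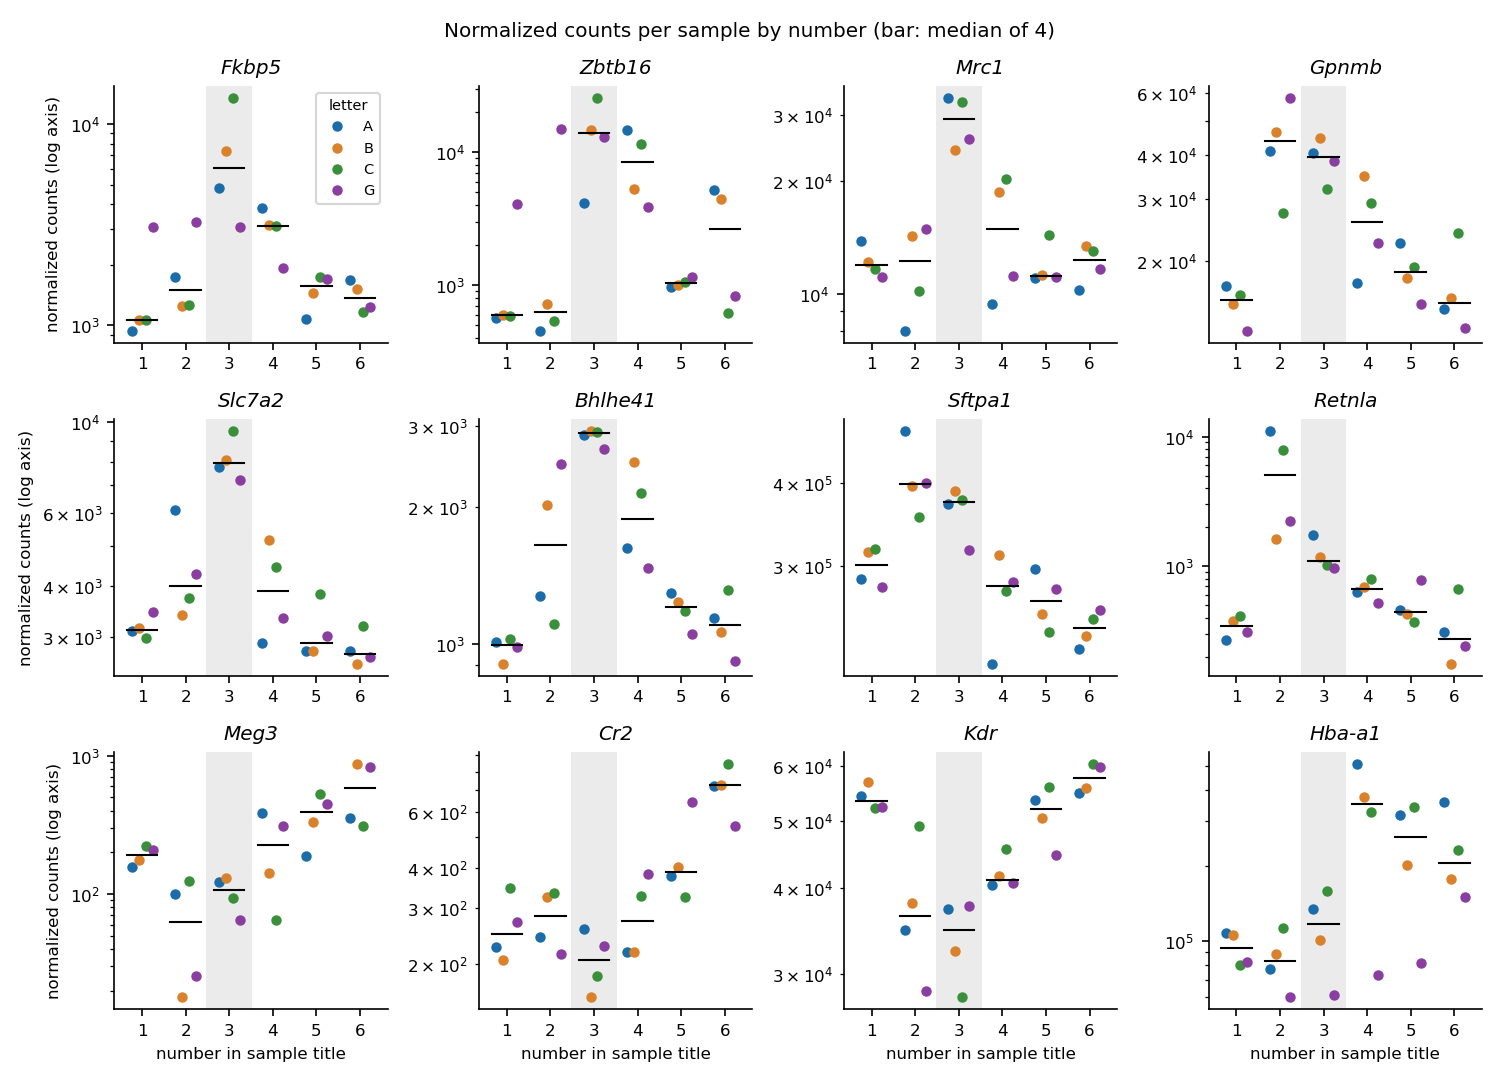
Normalized counts (log axis) of 12 genes in all 24 samples by the number in the sample title (x axis), with points coloured by letter, a bar at the median of each 4 and the number 3 column shaded. Fkbp5, Mrc1, Gpnmb, Slc7a2, Bhlhe41, Sftpa1 and Retnla are higher in all 4 number 3 samples than in any sample of numbers 5 and 6, Meg3, Cr2 and Kdr are lower in all 4, and Zbtb16 and Hba-a1 overlap.

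The genes with the smallest p were of moderate size and very even within number 3. Slc7a2, a transporter of arginine and other cationic amino acids, had 7769, 8065, 9500 and 7237 against 2577 to 3815 (median 2777) (log2 fold change 1.47, SE 0.062, limma adjusted p = 2.34e-07). Bhlhe41, a transcriptional repressor with roles in the clock and in alveolar macrophages, had 2879, 2933, 2911 and 2678 against 918 to 1315 (median 1160) (log2 fold change 1.32, SE 0.071, limma adjusted p = 2.21e-06). In both genes a wide gap separated the lowest number 3 sample from the highest of the 8 others. Slc7a8, a transporter of neutral amino acids, had 2957, 3214, 3247 and 2602 against 1427 to 1653 (median 1576) (log2 fold change 0.94, SE 0.058, limma adjusted p = 7.25e-06). Soat1, which esterifies cholesterol for storage, had 10277, 10934, 13621 and 10733 against 5413 to 6779 (median 6006) (log2 fold change 0.92, SE 0.059, limma adjusted p = 8.01e-06). Dab2, an adaptor of endocytosis, had 22958, 22679, 24503 and 21007 against 10669 to 14164 (median 12421) (log2 fold change 0.89, SE 0.058, limma adjusted p = 8.2e-06). C3 was the highest number 3 sample for Slc7a2, Slc7a8, Soat1 and Dab2, and no sample overlapped.

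Siglecg, a sialic acid receptor of leukocytes, had 5807, 4600, 5499 and 4968 against 2212 to 2830 (median 2456) (log2 fold change 1.05, SE 0.071, limma adjusted p = 9.16e-06), and Ccr1, a chemokine receptor of myeloid cells, had 2372, 2021, 2046 and 2080 against 865 to 1106 (median 1000) (log2 fold change 1.10, SE 0.078, limma adjusted p = 1.36e-05). Krt79, a keratin, had 5140, 5210, 5574 and 4731 against 1695 to 2600 (median 1983) (log2 fold change 1.34, SE 0.085, limma adjusted p = 7.85e-06). Card14, a scaffold of NF-kappaB signalling in epithelium, had 1313, 1319, 1255 and 1336 against 566 to 776 (median 598) (log2 fold change 1.08, SE 0.080, limma adjusted p = 1.79e-05). These 4 genes rose in every letter without overlap. Tmem28 was the only gene of the 12 with the smallest p that fell, with 326, 290.2, 313 and 269.7 against 564 to 662 (median 602) (log2 fold change -1.01, SE 0.077, limma adjusted p = 2.18e-05). All 12 of these genes, which also include Mrc1 and C2 below, stayed past the threshold in each of the 24 other fits, and they were singled out after their values were seen.

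Of 23 genes that respond to glucocorticoids or fasting, 9 rose and none fell (39.1% called, against 7.07% of all genes). Their median log2 fold change was 0.47, against 0.00 over all genes tested. The 7.07% covers every gene tested, low ones included, and was not matched in level to this or any later list. Fkbp5, a co-chaperone that lowers the receptor's affinity for its hormone, had 4810, 7351, 13556 and 3079 in number 3 against 1075 to 1735 (median 1475) (log2 fold change 2.12, SE 0.25, limma adjusted p = 0.000473). C3 was the highest and G3 the lowest, and G3 still exceeded all 8. Zbtb16, a zinc finger transcription factor, had 4171, 14708, 25693 and 13056 against 615 to 5238 (median 1032) (log2 fold change 3.10, SE 0.59, limma adjusted p = 0.00728). A3 was the lowest of the 4 and lay below A6 (5238) and B6 (4465), so the groups overlapped. Hif3a, an inhibitory hypoxia factor subunit, had 222, 839, 1169 and 445 against 67.3 to 266 (median 199.9) (log2 fold change 1.77, SE 0.40, limma adjusted p = 0.0177), with A3 again the lowest and inside the range of the others.

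Map3k6, a stress kinase, had 5011, 9069, 10351 and 7080 against 2580 to 5947 (median 3546) (log2 fold change 1.02, SE 0.20, limma adjusted p = 0.00835). Klf15, which directs amino acid breakdown in fasting, had 4088, 7001, 7552 and 5590 against 2046 to 5494 (median 2933) (log2 fold change 0.88, SE 0.22, limma adjusted p = 0.0333). Klf9, a related repressor, had 21640, 29197, 31811 and 26449 against 12647 to 21888 (median 17810) (log2 fold change 0.67, SE 0.14, limma adjusted p = 0.00986). In all 3 genes A3 was the lowest number 3 sample and the only one of the 4 within the range of numbers 5 and 6. Tsc22d3, the anti-inflammatory leucine zipper GILZ, had 23984, 35888, 33125 and 34345 against 11522 to 29444 (median 19044) (log2 fold change 0.74, SE 0.16, limma adjusted p = 0.014). The cell cycle inhibitor Cdkn1a rose by 0.76 (SE 0.12, limma adjusted p = 0.00204) and Fam107a, a cytoskeletal protein, by 0.61 (SE 0.17, adjusted p = 0.0487). The clock gene Per1, which glucocorticoids also induce, had 11743, 23162, 19353 and 20126 against 6935 to 29302 (median 15954) and did not pass (adjusted p = 0.669), and neither did Sgk1 (0.0579), Dusp1 (0.104) or Pdk4 (0.604). The count of 9 fell to 3 without B3 and to 2 without C3, and the median log2 fold change was 0.29 without B3, 0.44 without C3 and 0.62 without A3. Zbtb16 missed the threshold without C3 (adjusted p = 0.0532). Hif3a, Map3k6, Klf15, Klf9, Tsc22d3 and Fam107a missed it without B3 or C3, with adjusted p-values up to 0.113, 0.0629, 0.163, 0.0716, 0.0919 and 0.246. Under robust variance estimates Zbtb16, Hif3a, Map3k6, Klf15, Tsc22d3 and Fam107a missed it as well. Klf15 also missed it without A3, A5, A6 or B6. Fam107a also missed it without G3, and in 17 of the 24 other fits in all, both scalings tried among them.

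The promoters of Map3k6 and Fam107a are shown because they hold a match to the binding pattern of the glucocorticoid receptor (capitals), written here as GNACA, 3 bases of any kind and TGTNC. They come from RefSeq on the rat assembly GRCr8 and run from 250 bases before to 50 after the gene's start, 5′ to 3′ on the gene's strand, Map3k6 at chr5:150723995-150724294, plus strand and Fam107a at chr15:19046331-19046630, plus strand.
Map3k6: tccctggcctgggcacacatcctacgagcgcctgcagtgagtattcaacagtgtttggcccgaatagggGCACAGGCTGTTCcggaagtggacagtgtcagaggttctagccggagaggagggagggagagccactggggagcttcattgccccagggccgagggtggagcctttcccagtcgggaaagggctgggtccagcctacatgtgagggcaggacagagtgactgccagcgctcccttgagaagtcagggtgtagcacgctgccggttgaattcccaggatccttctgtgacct
Fam107a: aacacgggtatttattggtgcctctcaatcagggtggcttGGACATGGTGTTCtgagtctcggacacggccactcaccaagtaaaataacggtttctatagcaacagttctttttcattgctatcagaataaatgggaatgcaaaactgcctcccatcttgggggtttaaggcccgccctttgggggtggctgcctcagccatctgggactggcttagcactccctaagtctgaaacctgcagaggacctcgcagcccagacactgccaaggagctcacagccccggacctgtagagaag
The match begins 181 bases before the start in Map3k6 and 210 bases before it in Fam107a. Both strands were searched, and as the pattern is a palindrome each match counts on both. Of the 23 genes, 18 had a promoter in the table and 2 of them a match, both among the 8 called genes with a promoter, against 147 of all 33469 promoters (0.439%). Fkbp5, Klf9, Klf15, Tsc22d3, Hif3a and Cdkn1a had no match within these 300 bases. A match of letters is a description and not a binding site, the pattern was chosen after the values were seen, and its absence from this window says nothing of the receptor.

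Many macrophage genes were higher in number 3. Of 21 genes of alveolar and interstitial macrophages 10 rose and 1 fell (52.4% called), with a median log2 fold change of 0.59. Their mean log2 deviation from their means over 24 samples was 0.14, 0.40, 0.25 and 0.15 in number 3. In numbers 5 and 6 it ran from -0.32 to 0.21, with C6 the highest and above A3 and G3. It was 0.84, 0.17, 0.36 and 0.48 in number 2. Their summed values did not overlap, at 118988 to 134249 in number 3 against 66803 to 88891 in numbers 5 and 6. Mrc1, the mannose receptor, had 33463, 24195, 32584 and 26018 against 10259 to 14407 (median 11464) (log2 fold change 1.27, SE 0.088, limma adjusted p = 1.23e-05). Pparg, the nuclear receptor of alveolar macrophage identity, had 3107, 2381, 2548 and 2536 against 901 to 1548 (median 1224) (log2 fold change 1.11, SE 0.11, limma adjusted p = 0.000166). Siglecf, a sialic acid receptor that marks alveolar macrophages and eosinophils, had 2482, 1778, 2172 and 1684 against 963 to 1329 (median 1132) (log2 fold change 0.84, SE 0.11, limma adjusted p = 0.000656). None of these 3 genes overlapped, and the letters kept the same order, A3 and C3 above B3 and G3, in Mrc1 and Siglecf.

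Other genes of the same list were also higher. Gpnmb, a glycoprotein of lipid-laden macrophages, had 40513, 44855, 32092 and 38578 against 12906 to 24057 (median 16788) (log2 fold change 1.16, SE 0.14, limma adjusted p = 0.000554). Olr1, a receptor for oxidized lipoprotein, had 1790, 882, 1178 and 1082 against 438 to 561 (median 519.5) (log2 fold change 1.24, SE 0.13, limma adjusted p = 0.000166). Lgals3, a galectin, had 17844, 22010, 17920 and 16940 against 9830 to 15490 (median 11072) (log2 fold change 0.67, SE 0.11, limma adjusted p = 0.00259). No sample overlapped in these, although A3 was well above the other number 3 samples in Olr1. Cd163, the haemoglobin scavenger receptor, rose by 0.97 (SE 0.17, limma adjusted p = 0.00481), Cd68 of the lysosome by 0.68 (adjusted p = 0.00146), the lipid receptor Trem2 by 0.59 (adjusted p = 0.0303) and C1qa by 0.39 (adjusted p = 0.0266), each with some overlap. General macrophage genes did not pass: Csf1r, the receptor for the macrophage growth factor, had 15390 to 17541 against 14393 to 18170 and Adgre1, the F4/80 antigen, 659 to 804 against 606 to 1269. Car4, also a gene of lung capillaries, was the 1 that fell. Spp1, osteopontin, had 208, 334, 177 and 179 against 28.1 to 312 (median 69.5) and did not pass (adjusted p = 0.0741). Trem2 missed the threshold without A3, B3 or G3 (up to 0.155) and in 12 of the 24 other fits in all (limma adjusted p up to 0.206). C1qa missed it without A3, B3 or C3 (up to 0.156). The list's counts ranged from 8 to 10 genes higher under both scalings tried and without any 1 number 3 sample, letter G, or A6 and G5.

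Alveolar type 2 genes rose together by small amounts. Of 17 surfactant and type 2 cell genes 12 rose and none fell (70.6% called), with a median of 0.38 and called changes between 0.29 and 0.52 on the log2 scale. Sftpa1, surfactant protein A, had 371198, 388866, 377221 and 317150 against 225527 to 297130 (median 251890) (log2 fold change 0.52, SE 0.083, limma adjusted p = 0.00281). Slc34a2, the phosphate transporter that defines type 2 cells, had 129094, 133881, 136002 and 126097 against 84434 to 108041 (median 98250) (log2 fold change 0.44, SE 0.067, limma adjusted p = 0.00206). Abca3, the lipid pump of the lamellar body where surfactant is stored, had 52333, 53480, 51480 and 47846 against 35498 to 45145 (median 41630) (log2 fold change 0.32, SE 0.059, limma adjusted p = 0.00604). None of the 3 overlapped between the groups, and G3 was the lowest number 3 sample in each.

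Sftpc had 922496, 815946, 851778 and 731276 against 610363 to 813448 (median 639880) (log2 fold change 0.34, SE 0.073, limma adjusted p = 0.015), with G3 inside the range of the others. Sftpb and Sftpd rose by 0.29 and 0.44, Lamp3 of the lamellar body by 0.41, the surfactant protease Napsa by 0.29, the fatty acid receptor Cd36 by 0.38 and the mucin Muc1 by 0.45. The lysozyme genes Lyz2 and Lyz1, made by both macrophages and type 2 cells, rose by 0.49 and 0.49. As these are near-identical copies that share reads, their separate values are uncertain. Sftpc missed the threshold without A3, B3 or C3 and with all 24 samples in the fit. Under quantile normalization 9 of the 17 genes rose, and Sftpc was not among them. That scaling gives genes of the same rank the same value in every sample. It cannot show a change in a gene that keeps its rank, so it cannot decide on genes as abundant as Sftpc. Lamp3 missed the threshold without A3 or B3 (up to 0.0884), Sftpd without B3 or C3 (up to 0.0918) and under quantile normalization, and Sftpb under quantile normalization.

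Genes of other alveolar and lipid programmes moved less. Of 15 alveolar type 1 genes, Cldn18, a tight junction protein shared with type 2 cells, rose and Rtkn2 and Vegfa fell (20% called). Their median was -0.016. The log2 fold change of Ager was -0.011 (SE 0.057). Each of the 3 called genes missed the threshold without B3 or C3. Fasn, the fatty acid synthase, had 77761, 95231, 85106 and 66999 against 26431 to 63232 (median 46031) (log2 fold change 0.94, SE 0.22, limma adjusted p = 0.0221), above all 8, and Dgat2, which completes triglyceride synthesis, rose by 0.54 (adjusted p = 0.00091). Fasn missed the threshold without A3, B3 or C3 (up to 0.127). None of 21 sterol synthesis genes passed, and Hmgcs1, an early enzyme of that pathway, had 2262, 1802, 1745 and 2271 against 2062 to 3500 (median 2338) (adjusted p = 0.238).

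Complement and eicosanoid genes were among the groups that rose. Of 19 complement genes 7 rose and none fell (36.8% called, median 0.33). C2, a protease of the classical pathway, had 3912, 3352, 3588 and 3086 against 1591 to 2056 (median 1739) (log2 fold change 0.97, SE 0.072, limma adjusted p = 1.79e-05), and C5ar1, the receptor for the fragment C5a on myeloid cells, had 2944, 2514, 2282 and 1979 against 1114 to 1739 (median 1328) (log2 fold change 0.84, SE 0.11, limma adjusted p = 0.000987). Both were above all 8 samples in every number 3 sample. The C1q subunit genes C1qa, C1qb and C1qc rose by 0.39, 0.44 and 0.37, Cfb by 0.33 and Cfd by 0.45, with overlap, and G3 was the lowest number 3 sample for all 3 C1q genes. The count of 7 fell to 2, C2 and C5ar1, without A3, B3 or C3, and to 2 without A6 and G5. Cfd missed the threshold in 14 of the 24 other fits (limma adjusted p up to 0.371).

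In the synthesis of eicosanoids, the lipid mediators made from arachidonic acid, 7 of 16 genes rose and 2 fell (56.2% called, median 0.37). The leukotriene branch held 4 of the 7. Alox5, the 5-lipoxygenase, had 4542, 3695, 4599 and 3693 against 2336 to 3112 (median 2806) (log2 fold change 0.58, SE 0.088, limma adjusted p = 0.00206). Lta4h, which makes leukotriene B4, had 17187, 14140, 14638 and 13625 against 9100 to 11375 (median 10108) (log2 fold change 0.55, SE 0.066, limma adjusted p = 0.000484), and Ltc4s, which makes leukotriene C4, had 110.3, 142, 155 and 177 against 60.1 to 89.4 (median 72.8) (log2 fold change 0.99, SE 0.15, limma adjusted p = 0.00236). Together with Alox5ap, the partner of the lipoxygenase (log2 fold change 0.54, limma adjusted p = 0.00281), all 4 genes were above the 8 others in every number 3 sample.

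Of the prostanoid enzymes, Tbxas1, the thromboxane synthase, had 1928, 2250, 2116 and 1652 against 1018 to 1429 (median 1265) (log2 fold change 0.66, SE 0.099, limma adjusted p = 0.00191). Ptgs1 and the prostacyclin synthase Ptgis rose by 0.33 and 0.42, with limma adjusted p-values of 0.04 and 0.0476. Hpgd, which inactivates prostaglandins, went the other way, with 2185, 1801, 1696 and 1854 against 2385 to 3482 (median 3240) (log2 fold change -0.75, SE 0.096, limma adjusted p = 0.000686), and Hpgds, the blood cell prostaglandin D synthase, fell by 0.51 (adjusted p = 0.017). Ptgs1 missed the threshold without A3, B3 or C3 (up to 0.209), Ptgis without any 1 of the number 3 samples (up to 0.228) and Hpgds without B3, C3 or G3 (up to 0.0945). The inducible Ptgs2 did not pass (log2 fold change -0.27, adjusted p = 0.566), and neither did Alox15, with 11108, 8757, 13272 and 2767 against 2867 to 25889 (median 6817) (adjusted p = 0.841).

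Chemokine and type 2 immune genes were mixed. Of 30 chemokine ligands 5 rose and 1 fell (20% called, against 7.07% of all genes). Ccl9, a ligand of Ccr1 in rodents, had 2778, 2931, 3830 and 2028 against 984 to 1653 (median 1218) (log2 fold change 1.15, SE 0.11, limma adjusted p = 0.000132), above all 8 samples, and Cxcl16, Cxcl17, Cxcl15 and Ccl6 rose by 0.38, 0.44, 0.22 and 0.35. Cxcl3, a neutrophil attractant, fell by 0.84 (limma adjusted p = 0.0279). Retnla, the resistin-like protein induced in type 2 immunity, had 1742, 1174, 1025 and 962 against 175 to 784 (median 399) (log2 fold change 1.62, SE 0.33, limma adjusted p = 0.0103), with A3 the highest of the 4 and all 4 above the others. Arg1 rose by 0.50 (limma adjusted p = 0.0411) and the alarmin Il33 fell by 0.34 (adjusted p = 0.0091). Of 19 type 2 immune genes 2 were higher and 1 lower (15.8% called), with a median of -0.084. Of the 5 higher chemokine genes 3 passed without B3 (not Ccl6 and Cxcl15) and 2 without C3 (not Cxcl17 either), and Cxcl3 missed the threshold without any 1 of the number 3 samples (up to 0.123). Retnla missed it without A3 or B3 (up to 0.0669) and Il33 without B3 or C3 (up to 0.0656). Arg1 missed it without any 1 of the number 3 samples (up to 0.202) and in 13 of the 24 other fits in all. Its limma adjusted p was 0.316 with all 24 samples in the fit. Among 20 neutrophil and acute phase genes 2 rose (10% called), Ly6g and Hp, haptoglobin. Of the 20 log2 fold changes 16 were positive, with a median of 0.52 (0.21 without B3). Ly6g had 1119, 1339, 961 and 823 against 512 to 766 (median 610.5) (log2 fold change 0.77, SE 0.11, limma adjusted p = 0.00175). Hp missed the threshold without A3, B3 or C3 (up to 0.111). Without letter G 9 of the 20 rose, while S100a8 had 2424, 3353, 2018 and 693 in number 3, with G3 below the range of 1024 to 1946 in the others.

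Of 16 genes of the unfolded protein response 5 rose and none fell (31.2% called), 15 of the 16 log2 fold changes were positive and the median was 0.38. Hspa5, the main chaperone of the endoplasmic reticulum, had 51686, 35520, 36012 and 43013 against 19713 to 35439 (median 30116) (log2 fold change 0.57, SE 0.15, limma adjusted p = 0.0366). B3 and C3 exceeded the highest of the 8 narrowly and A3 was well above it. Xbp1, the transcription factor of the response, had 22554, 16602, 18299 and 18834 against 11403 to 15649 (median 14037) (log2 fold change 0.47, SE 0.087, limma adjusted p = 0.00644). Manf, a secreted protein of the reticulum, had 6207, 4724, 5011 and 5598 against 3205 to 4276 (median 3911) (log2 fold change 0.47, SE 0.066, limma adjusted p = 0.0011), and Herpud1, which helps to degrade misfolded protein, had 7983, 8093, 8286 and 8013 against 5280 to 6955 (median 6052) (log2 fold change 0.44, SE 0.072, limma adjusted p = 0.00315). Sdf2l1, a cofactor of Hspa5, rose by 0.82 (SE 0.19, adjusted p = 0.0202). In all 5 genes every number 3 sample lay above the 8 others, and A3 was the highest in Hspa5, Xbp1, Manf and Sdf2l1. The stress factors Ddit3 and Atf4 did not pass (log2 fold changes 0.17 and -0.027). The count of 5 fell to 3 without A3, B3 or C3, or without A6 and G5. Hspa5 missed the threshold without any 1 of the number 3 samples (up to 0.184) and Sdf2l1 without A3, B3 or C3 (up to 0.109). Against number 6 the difference in Hspa5 was 0.79 (adjusted p = 0.00273) and against number 5 0.36 (adjusted p = 0.134).

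The promoters of Hspa5 and Xbp1 are shown because both hold the endoplasmic reticulum stress response element (capitals), written here as CCAAT, 9 bases of any kind and CCACG. They are from RefSeq on GRCr8 over the same span around the start, Hspa5 at chr3:38452766-38453065, plus strand and Xbp1 at chr14:84604373-84604672, plus strand.
Hspa5: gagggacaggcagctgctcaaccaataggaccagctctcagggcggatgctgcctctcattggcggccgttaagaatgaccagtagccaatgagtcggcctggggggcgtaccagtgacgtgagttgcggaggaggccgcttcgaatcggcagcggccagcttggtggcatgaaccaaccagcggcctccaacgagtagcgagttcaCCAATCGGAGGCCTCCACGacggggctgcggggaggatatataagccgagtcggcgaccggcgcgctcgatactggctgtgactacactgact
Xbp1: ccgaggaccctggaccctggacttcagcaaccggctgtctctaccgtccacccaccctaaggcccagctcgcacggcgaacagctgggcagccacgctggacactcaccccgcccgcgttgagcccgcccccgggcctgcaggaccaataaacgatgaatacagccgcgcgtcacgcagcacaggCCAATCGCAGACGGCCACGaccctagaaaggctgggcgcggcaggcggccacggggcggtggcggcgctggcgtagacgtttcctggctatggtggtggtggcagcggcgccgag
The element begins 43 bases before the start in Hspa5 and 65 bases before it in Xbp1. On either strand it was found in 22 of all 33469 promoters (0.0657%) and in 5 of the 14 list genes with a promoter, Hspa5, Xbp1, Hsp90b1, Calr and Creld2. The last 3 had log2 fold changes of 0.37, 0.43 and 0.39 and did not pass. Herpud1 and Sdf2l1 rose with no match to this spelling in the window, and no other form of the element was searched. As before, the match is a description of letters, and the element was chosen with the values known.

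Endothelial genes were lower. Of 19 genes 8 fell and none rose (42.1% called), with a median of -0.24. Kdr, the main receptor for vascular endothelial growth factor, had 37217, 32350, 27738 and 37582 against 44654 to 60428 (median 55315) (log2 fold change -0.70, SE 0.095, limma adjusted p = 0.000976). Tie1, an angiopoietin co-receptor, had 23305, 23778, 21317 and 22570 against 23959 to 31883 (median 30537) (log2 fold change -0.38, SE 0.065, limma adjusted p = 0.00423), and Bmpr2, a receptor for bone morphogenetic proteins, had 38592, 33955, 35480 and 38105 against 43065 to 51650 (median 45331) (log2 fold change -0.35, SE 0.063, limma adjusted p = 0.00535). In these 3 genes all number 3 samples were below the 8 others, though in Tie1 by little. Ednrb, an endothelin receptor, and Car4, the carbonic anhydrase of lung capillaries, fell by 0.32 and 0.42, Aplnr, the apelin receptor, by 0.52, Egfl7 by 0.40 and Tek by 0.24. The defining endothelial genes Pecam1, Cdh5 and Cldn5 did not pass (log2 fold changes -0.072, -0.15 and 0.11), so the decreases were unequal within the list. The count of 8 fell to 5 without A3, B3 or C3, where Aplnr, Egfl7 and Tek missed the threshold (up to 0.1, 0.127 and 0.187).

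Red blood cell genes were lower as well, with 4 of 9 falling and a median of -0.74. Hba-a1, an alpha globin, had 133906, 100679, 158674 and 60739 against 81825 to 359397 (median 215741) (log2 fold change -0.98, SE 0.15, limma adjusted p = 0.00195). Letter G held the lowest sample of both groups, so the ranges overlapped although number 3 was lower within every letter. Hbb-bs and Hbb-bt, the beta globins, fell by 0.98 and 0.94 and Alas2, the haem synthesis enzyme of red cells, by 0.74. Without the replicate block the adjusted p of Hba-a1 was 0.0891, that of Hbb-bs 0.0734, that of Hbb-bt 0.0893 and that of Alas2 0.205. Alas2 also missed the threshold without any 1 of the number 3 samples (up to 0.123). The globin genes share reads between near-identical copies, and how far blood held in the tissue moves with the other differences was not tested.

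Lymphocyte genes split. Among 22 B and plasma cell genes 3 fell and 2 rose (22.7% called), with a median of 0.35. Cr2, a complement receptor, had 259, 158, 184 and 229 against 325 to 844 (median 591) (log2 fold change -1.41, SE 0.25, limma adjusted p = 0.00504). Pax5, the factor of B cell identity, had 164, 176, 131 and 129 against 219.9 to 458 (median 328) (log2 fold change -1.13, SE 0.21, limma adjusted p = 0.00622), and Ighm, the heavy chain of immunoglobulin M, fell by 0.73 (adjusted p = 0.0451). All 3 genes were below every sample of numbers 5 and 6. The log2 difference of Ighm was -1.12 against number 6 and -0.34 against number 5, and Ighm was itself higher in number 6 than in number 5 (log2 difference 0.77, limma adjusted p = 0.00770). The B cell antigens Ms4a1 and Cd79a did not pass (adjusted p = 0.207 and 0.329). The number falling was 2 without any 1 of the number 3 samples, and Ighm missed the threshold without any 1 of the samples of number 3 or of number 6 (up to 0.178).

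Secreted antibody genes did not pass over the 4 samples, and B3 stood apart. Ighg1, a heavy chain of immunoglobulin G, had 106513, 20597, 75222 and 90399 against 26011 to 48640 (median 34925) (log2 fold change 0.81, SE 0.28, adjusted p = 0.109), Ighg2b had 61364, 8539, 51672 and 68791 against 17271 to 31390 (median 24447), and the kappa light chain Igkc had 303241, 61730, 203116 and 272638 against 90914 to 140316 (median 115511). In all 3, A3, C3 and G3 were above all 8 others and B3 was below them. Xbp1 and Derl3, genes of secretory cells, were the 2 of the list that rose, and without B3 the number rose to 8. Jchain, which joins antibody units, had 38985, 13166, 28170 and 36281 against 15930 to 25690 (median 19148) (adjusted p = 0.128). The constant region genes are of close sequence, and their separate values are uncertain.

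Of 24 T and NK cell genes, 22 had negative log2 fold changes with a median of -0.23. Only Gzma and Gzmb, proteases of cytotoxic cells, fell, and Il7r, an interleukin receptor, rose (12.5% called). The list's scores, its genes' mean log2 deviations from their means over 24 samples, were -0.061, -0.12, -0.17 and -0.36 in number 3. In letter order they were -0.27, -0.23, -0.31 and 0.13 in number 5 and 0.37, 0.42, 0.21 and 0.67 in number 6. A3, B3 and C3 thus scored above A5, B5 and C5, and all 4 number 3 samples below number 6. Gzma had 602, 513, 491 and 672 against 631 to 1988 (median 1003) (log2 fold change -0.82, SE 0.22, limma adjusted p = 0.0406) and Gzmb 795, 671, 657 and 781 against 795 to 1975 (median 1091) (log2 fold change -0.62, SE 0.15, limma adjusted p = 0.0275). Neither passed without letter G, without A6 and G5, or without any 1 of the number 3 samples, with adjusted p-values up to 0.138 and 0.123 in the last case, and Il7r missed the threshold without A3, B3 or C3 (up to 0.131). Gzma was higher in number 6 than in number 5 by 0.84 (adjusted p = 0.00938). The T cell receptor complex genes Cd3e and Cd3d had log2 fold changes of -0.074 and -0.029. In the 13 mast cell genes Cpa3, a carboxypeptidase of the granule, had 518, 185, 580.3 and 256 against 72 to 248 (median 159) and rose (log2 fold change 1.26, SE 0.31, limma adjusted p = 0.026), while Kit and Hdc fell by 0.63 and 0.33. Over the 13 genes (23.1% called) 10 log2 fold changes were positive with a median of 0.72 (0.26 without A3). Without letter G 4 rose and 1 fell. Cpa3 was high in A3 and C3, and missed the threshold without either (up to 0.142). Kit missed it without B3 or C3 (up to 0.0623) and Hdc without A3, C3 or G3 (up to 0.113).

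Immediate early genes, which answer a stimulus within minutes, were lower on the median (-0.50, 21 of 26 negative), with 4 falling and 2 rising (23.1% called). The list's scores were -0.27, -0.17, -0.36 and -0.34 in number 3. In letter order they were 0.60, -0.054, -0.40 and -0.49 in number 5 and 0.33, 0.37, 0.19 and 0.72 in number 6. C5 and G5 thus scored below all 4 number 3 samples, and every sample of number 6 above them. Nr4a1, an orphan nuclear receptor, had 3042, 2601, 1745 and 2395 against 2967 to 21244 (median 12336) (log2 fold change -1.97, SE 0.38, limma adjusted p = 0.00768). Egr3, a zinc finger factor, had 234, 173, 149.8 and 141 against 170.1 to 911 (median 373) (log2 fold change -1.22, SE 0.27, limma adjusted p = 0.0153). Both overlapped, since the 8 samples spread far more widely than the 4. Klf2 and Klf4, factors of quiescent endothelium and epithelium, had 12866 to 16272 and 12602 to 15578 against 17830 to 30015 and 15765 to 24918, with no overlap, and fell by 0.56 and 0.56. Egr2, also a factor of macrophages, had 752, 711, 501 and 510.4 against 256 to 426 (median 298) and rose (log2 fold change 0.92, SE 0.18, limma adjusted p = 0.00921), and Myc rose by 0.42 (adjusted p = 0.00709). Fos, with 1142, 2130, 1548 and 1808 against 737 to 6026 (median 4859), did not pass (adjusted p = 0.524). Without A6 and G5 10 genes of the list fell, and without letter G 7 did. Egr3 missed the threshold without A3, B3 or C3 (up to 0.0895). Nr4a1 missed the threshold under robust variance estimates (adjusted p = 0.0646), and Egr2 without A3 or B3 (up to 0.0651).

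Airway and xenobiotic genes were lower where they changed. Of 20 ciliated cell genes 19 had negative log2 fold changes (median -0.41) and 4 fell (20% called). Cfap126, a protein of the ciliary base, had 811, 833, 778 and 799 against 965 to 1540 (median 1150) (log2 fold change -0.54, SE 0.10, limma adjusted p = 0.00805), below all 8, and Ccdc153, Dynlrb2 and Pifo fell by 0.56, 0.58 and 0.67. Without letter G 13 of the 20 fell, with scaling to the 75th percentile 7, without G3 2, and without A3, B3 or C3 1. Of 16 club and airway secretory genes 2 fell (12.5% called), Scgb3a2, a secretoglobin, and Aldh1a1. Scgb3a2 had 4084, 3690, 3622 and 4202 against 4433 to 7981 (median 5487) (log2 fold change -0.52, SE 0.10, limma adjusted p = 0.00977). Scgb1a1, the club cell's defining gene, had 418195, 429334, 393172 and 495837 against 433197 to 582250 (median 539093) and did not pass (adjusted p = 0.0652). Scgb1a1 had a log2 fold change of -0.28 and passed in 7 of the 24 other fits, among them those without letter G (adjusted p = 0.0092) and without G6 (adjusted p = 0.00563). Without letter G 4 of the 16 genes fell and 1 rose. Scgb3a2 missed the threshold without B3, and Aldh1a1 without A3, B3 or C3.

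Coal smoke carries polycyclic aromatic hydrocarbons, which switch on Cyp1a1 through the aryl hydrocarbon receptor. Cyp1a1 had 3031, 5822, 4593 and 3284 against 1080 to 7049 (median 3530) and did not differ beyond the spread (log2 fold change 0.30, SE 0.30, limma adjusted p = 0.65). The receptor's repressor Ahrr had 273, 445, 286 and 93.9 against 45.4 to 583 (median 457) (adjusted p = 0.711). On the list of 8 target genes of this receptor, letter G scored lowest within numbers 3, 5 and 6 (-0.39, -0.86 and -0.61). Without letter G the log2 fold change of Ahrr was -0.56 (limma adjusted p = 0.095). Ahr, the receptor itself, had 6121, 4126, 3819 and 6233 against 7177 to 9507 (median 7697) (log2 fold change -0.69, SE 0.13, limma adjusted p = 0.00831), and Aldh3a1, an aldehyde dehydrogenase it controls, had 229, 311, 205 and 302 against 389 to 639.9 (median 452) (log2 fold change -0.86, SE 0.13, limma adjusted p = 0.00242). Both lay below all 8 samples, and Ahr missed the threshold without B3 or C3 (up to 0.0587). Of 14 other cytochrome P450 genes 3 fell: Cyp2a5, with 364, 354, 189.5 and 705 against 545 to 5464 (median 1168) (log2 fold change -2.04, SE 0.47, limma adjusted p = 0.0212), Cyp2b10 and Cyp2j6. None of the 3 passed without B3 or C3: Cyp2a5 missed the threshold without A3, B3 or C3 (up to 0.0993), Cyp2b10 without B3 or C3 (up to 0.0909) and Cyp2j6 without any 1 of the number 3 samples (up to 0.204) or under quantile normalization.

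Targets of NRF2, the factor of the oxidative stress response, did not move in 1 direction. Of 15 tested 1 rose and 3 fell (26.7% called), with a median of -0.11. Hmox1, which breaks down haem, had 4122, 3324, 3868 and 2753 against 1718 to 2731 (median 1896) and rose (log2 fold change 0.80, SE 0.11, limma adjusted p = 0.00115), above all 8 samples. Gstp1, a glutathione transferase, had 4713, 4792, 4662 and 5118 against 5876 to 7332 (median 6532) and fell (log2 fold change -0.44, SE 0.058, limma adjusted p = 0.000814), below all 8. Gclm and Nfe2l2, the gene of NRF2 itself, fell by 0.21 and 0.23, Gclm missing the threshold without any 1 of the number 3 samples (up to 0.147) and Nfe2l2 without B3 or C3 (up to 0.15), and Nqo1 did not pass (adjusted p = 0.136). In the list of 16 p53 targets, which also holds Cdkn1a, 4 rose and none fell (25% called), with a median of 0.018. Without B3 1 of them rose and 1 fell, and without C3 1 rose and none fell. Among 17 hypoxia targets 3 rose and 1 fell (23.5% called). Ndrg1 and the glucose transporter Slc2a1 rose by 0.46 and 0.55 (adjusted p = 0.000542 and 0.00094), both above all 8 samples. Ldha, a lactate dehydrogenase subunit, rose by 0.28 (adjusted p = 0.0432) and Vegfa, the endothelial growth factor, had a log2 fold change of -0.24 (adjusted p = 0.0312), and Ldha missed the threshold without A3, B3 or C3 (up to 0.221) and Vegfa without any 1 of the number 3 samples (up to 0.13). Of 18 collagen genes 2 rose and 2 fell (22.2% called), but without any 1 of the number 3 samples 1 rose and none fell. Col16a1 had 17956, 20318, 18623 and 19196 against 12272 to 15481 (median 13721) (log2 fold change 0.46, SE 0.065, limma adjusted p = 0.00115, 0.0601 with all 24 samples in the fit). Cthrc1, a collagen-associated protein of activated fibroblasts, had 299.7, 287, 279 and 261 against 101 to 217 (median 155) (log2 fold change 0.81, SE 0.16, limma adjusted p = 0.00931). Cthrc1 missed the threshold without B3 or C3 (up to 0.0669).

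**Figure D3:**
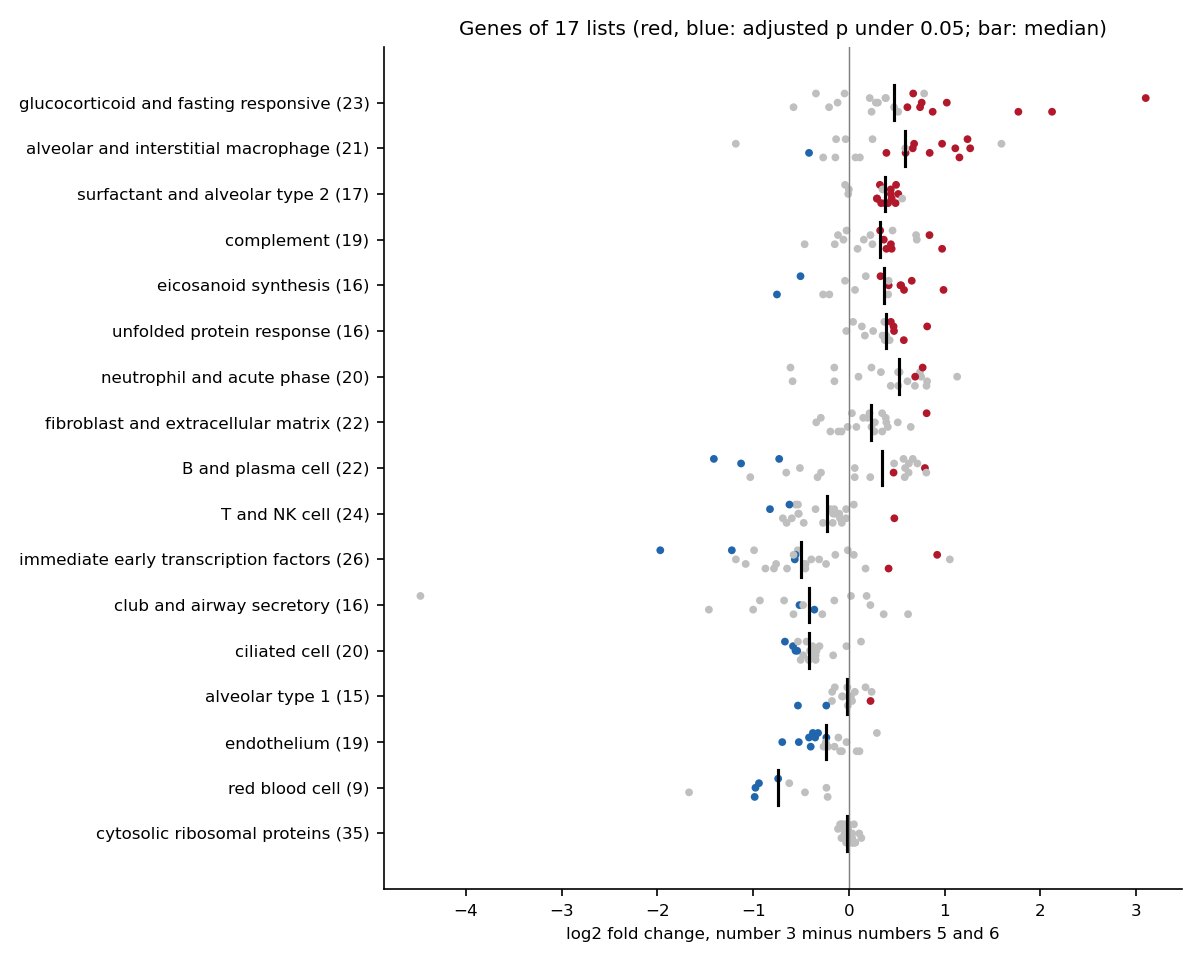
Log2 fold changes (x axis) of the genes in 17 lists, 1 row per list with the number of genes tested in brackets; red and blue points passed an adjusted p under 0.05, grey points did not, and the black bar is the median. The highest medians are those of the macrophage (0.59), neutrophil (0.52), glucocorticoid (0.47), unfolded protein response (0.38) and type 2 (0.38) rows. The red blood cell row has the lowest, at -0.74, while the ribosomal protein row stays at -0.021.

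Several programmes showed no called gene. These were the circadian activators (9 genes tested), sterol synthesis (21), antigen presentation (20), smooth muscle (11), cardiac muscle (12), skeletal muscle (12), mesothelium (7), thymus (6), Y-linked genes with Xist (7), oxidative phosphorylation from the mitochondrial (12) and nuclear (27) genomes, cytosolic ribosomal proteins (35) and the spliceosome (26). Some of these had calls in other fits: without letter G 8 of the 12 cardiac genes fell and 5 of the 20 antigen presentation genes and 1 of the 12 mitochondrial genes rose, without G3 2 antigen presentation genes and 1 mitochondrial gene rose, without A3 1 mesothelial gene rose, and with quantile normalization 1 circadian activator and 1 smooth muscle gene fell. Of the clock genes Arntl had 3467, 3234, 2876 and 4292 against 3185 to 5309 (median 3961) (adjusted p = 0.0642), Dbp had 447, 595, 1195 and 409.5 against 389 to 1159 (median 666) (adjusted p = 0.843) and Nr1d1 had 3730, 4808, 10146 and 5038 against 1466 to 8074 (median 4664) (adjusted p = 0.446). Only Bhlhe41 and Bhlhe40 of 23 clock genes passed, and Bhlhe40 overlapped and missed the threshold without A3, B3 or C3 (up to 0.116). The proliferation marker Mki67 had 795, 842, 802 and 718 against 557 to 991 (median 722) (adjusted p = 0.848), and 1 of 26 proliferation genes passed, Tyms, which fell by 0.33 and missed the threshold without any 1 of the number 3 samples (up to 0.183).

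Markers of neighbouring tissue varied between samples of the same number. The cardiac gene Myh6 had 2.01, 132, 12.3 and 657 in number 3 and 7.67 to 9136 (median 987) in the 8 others, with G5 the highest (log2 fold change -3.85, SE 1.62, adjusted p = 0.2). All 12 cardiac genes tested had negative log2 fold changes, with a median of -1.79 (-0.94 without A6 and G5, and -2.13 without letter G, where 8 of the 12 fell), and their summed values lay at 928 to 2892 in number 3 and 906 to 29829 in numbers 5 and 6. Mesothelial genes leaned the other way, 7 of 7 positive with a median of 0.98 (0.50 without C3), and Msln had 10868, 8753, 11480 and 6997 against 777 to 10378 (median 5271) (adjusted p = 0.272). The mesothelial scores were 0.42, 0.35, 0.54 and 0.27 in number 3. C6 was the lowest of the 8 others at -2.40, while A5, at 0.71, lay above all 4 number 3 samples. With the letter as a block, leaving out C3 also takes C6 out of the estimate. Squamous markers were low in all 12 samples, Krt13 at 30.6 to 63.7 and 23.3 to 41.7, and the adipocyte gene Adipoq reached 6.02 to 17.4 and 7.93 to 399. The thymus gene Rag1 was at or near 0 in all 12. Leaving out A6 and G5, the 2 of the 8 samples with the highest cardiac sums, gave 1746 called genes, and what part neighbouring tissue has in the other differences was not tested.

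**Figure D4:**
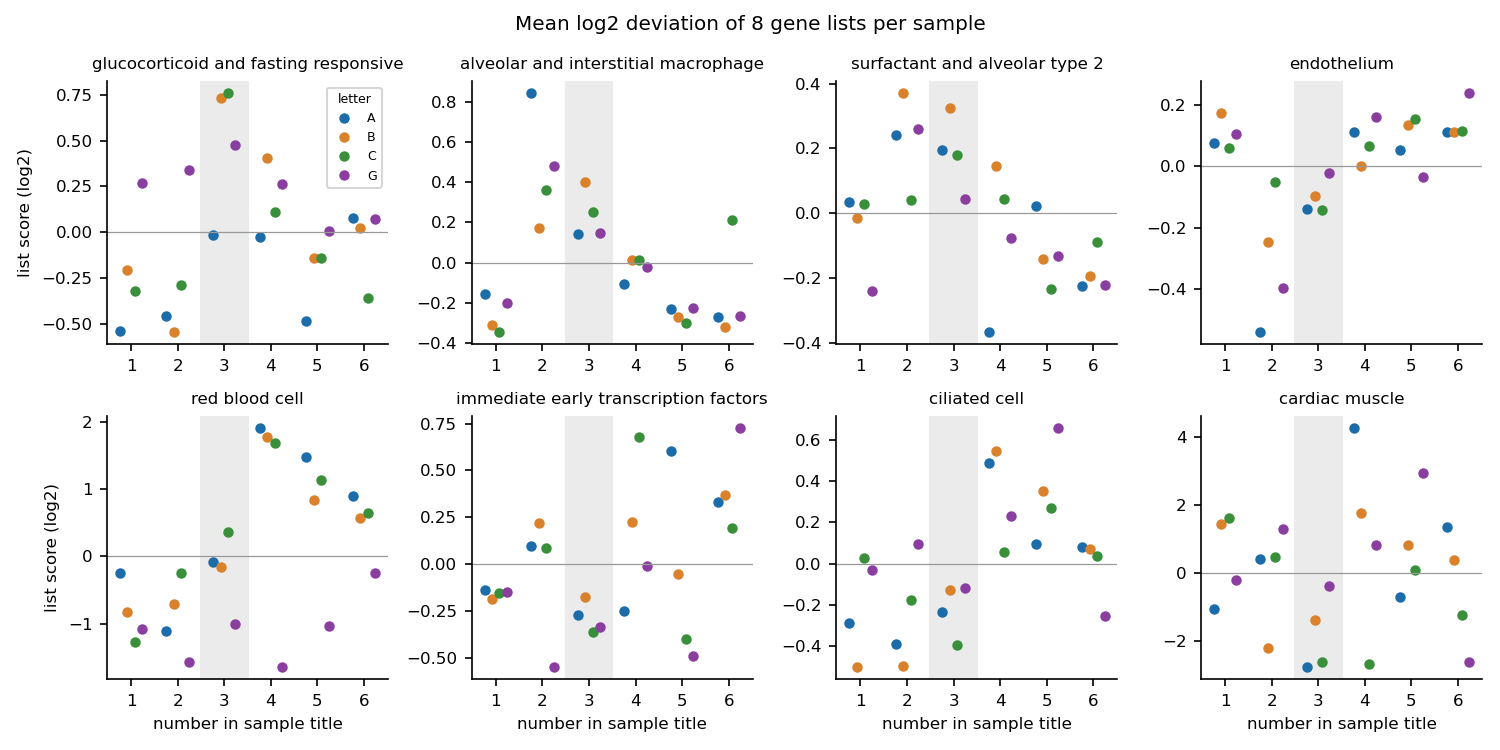
Score of 8 gene lists (y axis, log2, the mean over genes of each value minus the gene's mean over 24 samples) in every sample by number (x axis), coloured by letter, with number 3 shaded. Number 3 scores on surfactant and type 2 genes run from 0.043 to 0.33, above the -0.23 to 0.023 of numbers 5 and 6, whereas cardiac scores range from -2.76 to -0.38 in number 3 and from -2.62 to 2.94 in numbers 5 and 6.

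Against the 12 samples numbered 1, 2 and 4, in a fit of all 24 samples, number 3 differed in 1335 of 30667 genes (4.35%), 737 higher and 598 lower. This comparison uses the same 4 number 3 samples, so its values are given beside the others and not as separate evidence. Fkbp5 lay at 937 to 3831 (median 1828) in numbers 1, 2 and 4, and number 3 was higher by 1.71 (limma adjusted p = 0.00556). Slc7a2 lay at 2899 to 6100 (median 3428), with a difference of 1.12 (adjusted p = 9.9e-05), and Mrc1 at 7980 to 20336 (median 11938), with a difference of 1.20 (adjusted p = 0.000265). In these 3 genes number 3 was above both sets, although single samples of numbers 2 or 4 came near it or passed its lowest sample in Fkbp5. Krt79, Dab2, Pparg and Siglecf also passed, with differences of 1.31, 0.77, 0.92 and 0.57.

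For other genes numbers 1, 2 and 4 lay between or nearer to number 3. Gpnmb ranged over 12651 to 58248 (median 24916) in them, and the difference of 0.63 did not pass (adjusted p = 0.0532). Sftpa1 ranged over 213686 to 478718 (median 313637) (adjusted p = 0.291), Retnla over 272 to 11055 (median 665) (adjusted p = 0.742), Meg3 over 17.9 to 382 (median 149.8) (adjusted p = 0.837) and Hba-a1 over 59554 to 507765 (median 97163) (adjusted p = 0.697). Tmem28 ranged over 136 to 582 (median 219.5), a median below all 4 number 3 samples. Of the 17 type 2 genes none passed against numbers 1, 2 and 4, of the 16 unfolded protein response genes none, of the 21 macrophage genes 3 were higher and 1 lower, and of the 23 glucocorticoid and fasting genes 9 were higher. Col1a1, the main fibrillar collagen, did not pass against numbers 5 and 6, with 30740, 37711, 30704 and 29729 against 19870 to 31290 (median 25920) (adjusted p = 0.139), and was lower in number 3 than in numbers 1, 2 and 4, at 28641 to 98916 (median 71397) (log2 difference -0.91, adjusted p = 0.000758).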

How the data were processed

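Gene expression was measured by mRNA sequencing of lung tissue in 24 rat samples, of which the 12 numbered 3, 5 and 6 enter the main comparison. The authors deposited 1 table of signal values, which are normalized read counts and not whole numbers. The submitters' processing notes name STAR and the mouse build GRCm38, with no role or order, and the normalization, annotation and strand setting are not given in the sources used here. Sums per sample were 61717516 to 66007148, so the depth is unknown and no counting interval is given. Of 30667 row names, 16143 (52.6%) matched a rat RefSeq symbol of GRCr8.

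Limma-trend (limma 3.58.1, R 4.3.3) was run on log2(value + 1) for genes whose mean reached 0.5, with the letter as a block as the comparison's own rule sets it. P-values are two-sided with Benjamini-Hochberg adjustment over all genes and a threshold of 0.05. Number 3 against 5, 6, and 1, 2 and 4 used 1 mean per number. The samples, the 48 gene lists and the tests were chosen with earlier results of these data known.

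The naming rule gives the 12 largest changes per direction (adjusted p under 0.05, mean of at least 20, no overlap, no mouse gene-model name), up to 5 called genes per list by p, and 21 preset genes. Not every gene it gives is described above, nor every list. The 12 smallest p-values and the other called or quoted list members were added after seeing the data. Same-letter deviations from the number means, taken over the 21922 genes whose mean reached 10, correlated between -0.14 and 0.15. Over these genes as a whole the letters do not pair the samples, and no label says that they do. Single lists can still differ by letter: letter G scored lowest on aryl hydrocarbon receptor targets and red blood cell genes within numbers 3, 5 and 6. The fitting step was tested on simulated data. Figures were drawn with matplotlib 3.10.9. 1 gene is not reported here and was left out of its list.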

Additional observations from a re-analysis of the deposited data

Results flagged for a closer look

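A value far from the other 3 of its number was found for 33 of 591 sets of 4 samples (each gene named, in numbers 3, 5 and 6), and chance alone gives about 1 in 20. In number 3, A3 was high for Ccr1 (2372), Calr (59120, the others up to 47940), Derl3 (593), Dlk1 (377) and Nfe2l2 (10936). B3 was high for Col1a1 (37711) and C3 for Tmem169, at 200.05 against 40.0 to 62.8 in the other 3. G3 was low for C1qa, at 2690 against 3528 to 3621, and for C1qc, at 1949 against 2662 to 2794, genes of the complement subunit that macrophages make.

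In number 5, G5 was low for Ahrr (45.4, against 512 to 583 in the other 3), Alox5 (2441), Ptgis (2401) and Tie1 (23959). G5 was high for Gzma (1049), Gzmb (1336) and Myh6 (9136, against 340.4 to 1677). Letter G also held the lowest Ahrr value within number 3. A5 was high for Fos, at 5951 against 737 to 1104, for Msln (10378), Lyz2 (132264) and Tbxas1 (1429). B5 was high for Cfd (949), and C5 was high for Mrc1 (14407) and Vegfa (103119) and low for Scn10a (13.9). In number 6, A6 was high for Adipoq (66.9, the others up to 13.3) and low for Cyp2j6 (685), B6 was high for Peg3 (4173) and low for Tbxas1 (1018) and Sftpd (44070), C6 was low for Grb10 (4467) and high for Lyz1 (192102), and G6 was high for Cd163 (416) and Hsp90b1 (32600).

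Numbers 5 and 6, which were joined as 1 group, differed from each other in 3 of the genes named. Number 6 was higher than number 5 in Gzma (log2 difference 0.84, limma adjusted p = 0.00938), Ighm (0.77, adjusted p = 0.00770) and Dusp1 (0.72, adjusted p = 0.0204). The difference of number 3 was unequal between letters for the gene model Gm22751 (limma interaction test, adjusted p = 0.0173) and for Mir692-2 (adjusted p = 0.0351). Gm22751 had 473 in G3, 317 in A5 and 484 in A6, and at most 1.89 in the 9 other samples of the 12. Mir692-2 was lower in G3 (62.9) than in G5 (456) and G6 (521), and higher in A3 (176) than in A5 (92.4) and A6 (92.5).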

How the results depend on the processing

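Number 3 against numbers 5 and 6 gave 2164 genes, and 1746 to 2949 under the alternatives that kept all samples or left out letter G (2111) or A6 and G5 (1746, both chosen after seeing the data). These were another pseudocount, filter, scaling, weighting, variance estimate or set of samples. None of the called genes named by the rule changed sign in any fit. Without the replicate block, that is with the letters not paired, 2519 genes passed, 2084 against number 5, 2830 against number 6 and 1102 against numbers 1, 2 and 4. The share of higher genes was 54.7%, 49.7% with quantile normalization and 48.7% with scaling to the 75th percentile, which moved the median of all genes by no more than 0.016.

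Leaving out 1 of the 12 samples gave 927 to 2593 genes, the fewest without C3 (927), B3 (982) and A3 (1247). Leaving out 1 number 3 sample gave 881 to 1867 genes against number 5 (996 without B3, 881 without C3), 1552 to 2265 against number 6 (1552 without B3, 1605 without C3) and 426 to 1000 against numbers 1, 2 and 4 (699 without A3, 782 without B3, 426 without C3). With the letter as a block, leaving out a number 3 sample leaves 3 letters to estimate the difference. Of the 138 called genes that the naming rule gives, 66 passed in every fit and 85 in every fit that did not leave out 1 sample. The 2 genes whose difference was unequal between letters became 0 with a pseudocount of 0.1 (limma, 1335 at an unadjusted p under 0.05), and the cause was not tested. Depth is unknown, so what it limits cannot be given.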
